A study of Mus musculus with 10 samples.

Results

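Nucleic acid sensors are the proteins with which a cell detects foreign or misplaced RNA and DNA, and 10 genes of this system were followed here among the 50600 genes counted per library. They were taken by name: the RNA helicases Ddx58 (RIG-I), Ifih1 (MDA5) and Dhx58 (LGP2) with their shared adaptor Mavs, the endosomal receptor Tlr3, the Z-form nucleic acid sensor Zbp1, the kinase Eif2ak2 (PKR), and, on the DNA side, Mb21d1 (cGAS), Tmem173 (STING) and the DNA exonuclease Trex1. All 10 were found by symbol, were expressed at a mean of at least 1 TPM (a measure of transcript level corrected for transcript length and library depth), and entered the test. The question behind the comparison was whether sensors that could detect retroviral nucleic acid were expressed differently in the control and FoxO6 arms of a reprogramming experiment.

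Mouse embryonic fibroblasts (MEFs) from E13.5 embryos of strain CBA/CaJ X C57BL/6J, carrying an Oct4-GFP reporter, were infected with retroviruses made in PlatE packaging cells and then grown in iCD1 medium. Every library carried the retroviral factors Oct4, Klf4 and Sox2 (OKS). The control arm, OKS + DsRed, received a retrovirus for the red fluorescent protein DsRed, and the other arm, OKS + FoxO6, one for the forkhead transcription factor FoxO6. Each arm gave 1 RNA library on each of days 0, 1, 3, 5 and 7, for 10 libraries in all, so no day has replicates, no uninfected library was analysed here, and day 0 already carried virus-derived transcripts. Total expected counts lay between 1208379 and 2225750 per library with a median of 1601151. Foxo6 stood between 0.61 and 2.29 TPM in the 5 control libraries and between 762 and 1356 TPM in the 5 OKS + FoxO6 libraries, as the labels say. All 11 fibroblast markers were detected in every library, and their summed TPM went from 9246 at day 0 to 3015 at day 7 in the control arm and from 8914 to 3275 in the FoxO6 arm.

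RIG-I, MDA5 and LGP2 survey RNA in the cytosol. RIG-I and MDA5 signal through MAVS on mitochondria to the kinase TBK1 and the factors IRF3 and IRF7, which switch on interferon genes, while LGP2 tunes the other two. TLR3 detects double-stranded RNA in endosomes and PKR halts translation when it binds such RNA, while ZBP1 can trigger cell death. cGAS makes a cyclic dinucleotide on cytosolic DNA, including the DNA copies that a retrovirus makes of its RNA, STING receives that messenger, and TREX1 degrades such DNA. Several sensors are themselves interferon-stimulated genes, so their transcripts can stand upstream of interferon as detectors and downstream of it as targets.

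The loci (GRCm38, GENCODE M21) are Ddx58 at chr4:40203773-40239828, Ifih1 at chr2:62595798-62646255, Zbp1 at chr2:173206612-173218923, Mavs at chr2:131234063-131248025, Dhx58 at chr11:100694884-100704271, Tlr3 at chr8:45395665-45411080, Eif2ak2 at chr17:78852564-78882573, Mb21d1 at chr9:78430526-78443237 and Trex1 at chr9:109057933-109059734. Mavs is on the plus strand and the other 9 genes, with Tmem173, are on the minus strand. All 1147 exonic bases of Trex1 also belong to Atrip on the same strand, so how reads were divided between them is uncertain. Dhx58, Tlr3, Mb21d1 and Eif2ak2 share between 47 and 381 exonic bases with genes on the opposite strand, and since the strand setting of the counting is not given in the sources used here, reads there cannot be assigned to one strand.

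The start regions of the sensors show which of them carry the letters of an interferon-stimulated response element (ISRE), a sequence bound by factors that interferons activate and by IRF factors. The RefSeq table of 300-base promoters (GRCm38.p6), from 250 bases before to 50 after the start, held 7 of the 10 genes, without Dhx58, Zbp1 and Tmem173. The ISRE core, GAAA followed by any 2 bases and GAAA again, was searched on both strands (on the opposite strand it reads TTTC, any 2 bases, TTTC). It occurred once each in Ddx58, Ifih1 and Eif2ak2, in each case in the first 50 transcribed bases, and not in the windows of Tlr3, Mb21d1, Mavs or Trex1. Of all 32851 promoters listed there, 3.44% held it, and of 27025 genes 3.99%. The 30 bases around each match are shown 5′ to 3′ on the strand of the gene because these letters set the 3 sensors apart within the group, with the match in capitals. The match covered transcribed bases 3 to 12 of Ddx58 (chr4:40239804-40239833), 33 to 42 of Ifih1 (chr2:62646206-62646235) and 19 to 28 of Eif2ak2 (chr17:78882535-78882564), all 3 windows on the minus strand.
Ddx58: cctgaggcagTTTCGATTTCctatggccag
Ifih1: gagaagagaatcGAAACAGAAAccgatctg
Eif2ak2: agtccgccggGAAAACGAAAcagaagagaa

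For contrast, the 250 bases before the start are printed for Ddx58 (chr4:40239826-40240075, minus strand, 53.6% G and C), the sensor with the most reads, and for Mavs (chr2:131233813-131234062, plus strand, 65.2% G and C), its adaptor. Neither stretch held the ISRE core. The gamma-activated site TTCNNNGAA, the same letters on both strands, occurred among the 7 genes in Eif2ak2 alone, and 8.3% of all promoters held it. A match describes letters in a window and says nothing of binding.
Ddx58: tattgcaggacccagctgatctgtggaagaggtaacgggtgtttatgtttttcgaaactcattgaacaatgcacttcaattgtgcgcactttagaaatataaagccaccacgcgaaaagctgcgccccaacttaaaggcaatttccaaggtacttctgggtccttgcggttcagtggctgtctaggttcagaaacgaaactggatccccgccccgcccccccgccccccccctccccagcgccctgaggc
Mavs: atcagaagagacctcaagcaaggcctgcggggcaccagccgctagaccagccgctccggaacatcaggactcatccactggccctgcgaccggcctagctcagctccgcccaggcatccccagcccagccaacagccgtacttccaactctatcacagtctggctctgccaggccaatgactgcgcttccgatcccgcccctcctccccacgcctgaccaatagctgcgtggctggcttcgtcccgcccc

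Over the 5 days, Ddx58 and Zbp1 were lower in OKS + FoxO6 than in OKS + DsRed and Tmem173 was higher, while the other 7 sensors did not pass the test. The test was edgeR's quasi-likelihood test of the arm with day as a factor, adjusted by Benjamini-Hochberg over 12212 genes, at an adjusted p under 0.05. By it 841 genes (6.89%) were lower and 810 genes (6.63%) higher in OKS + FoxO6, against 2 and 1 of the 10 sensors. The median log2 fold change was -0.35 over the sensors and -0.02 over all genes tested. With 1 library per arm and day the p-values describe these time courses and not independent infections, since nothing says that the days of an arm came from separate cultures. In such bulk RNA, fewer expressing cells and less RNA per cell cannot be told apart.

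**Figure D1:**
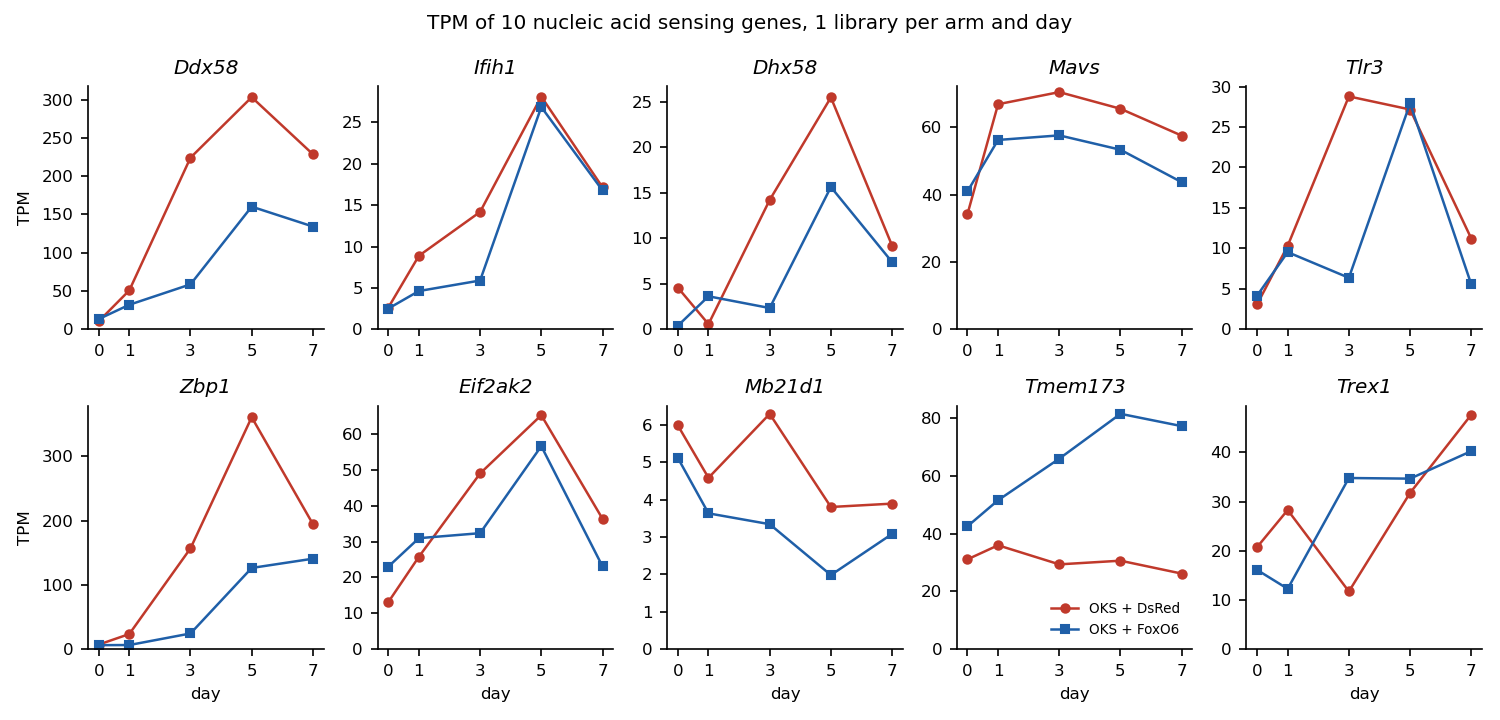
TPM (vertical axis, from 0) of the 10 sensing genes against day (horizontal axis) in OKS + DsRed (red circles) and OKS + FoxO6 (blue squares), 1 library per point and no error bars. The control line of Ddx58 and of Zbp1 lies above the FoxO6 line from day 1 to day 7, that of Tmem173 lies below it on all 5 days, and both arms are higher at day 5 than at day 0 for Ddx58, Ifih1, Dhx58, Tlr3, Zbp1 and Eif2ak2.

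Among the RIG-I-like receptors, Ddx58 had the most reads. Its level on days 0, 1, 3, 5 and 7, the order used for all values by day, was 10.4, 50.7, 224, 303 and 229 TPM in the control arm. In the FoxO6 arm it was 13.3, 32.0, 58.6, 160.1 and 134 TPM. The FoxO6 arm was thus above the control at day 0 and below it on the other 4 days, and both arms had their highest TPM at day 5. By reads scaled to library size (CPM) the FoxO6 arm was highest at day 7, at 274 against 254 at day 5. Over the 5 days Ddx58 was lower in OKS + FoxO6 by a log2 fold change of -0.95 (SE 0.23, edgeR adjusted p = 0.0225), or 1.94-fold. The call was lost when day 1, day 3 or day 5 was left out (adjusted p = 0.0631, 0.0745 and 0.0884), with log2 fold changes of -0.95, -0.66 and -0.95.

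Ifih1, which detects long double-stranded RNA, was low at day 0 in both arms, at 2.61 TPM in the control and 2.50 in OKS + FoxO6. The control arm then read 8.88, 14.2, 28.1 and 17.2 TPM on days 1, 3, 5 and 7, and the FoxO6 arm 4.62, 5.89, 26.9 and 16.8. The arms stood apart at days 1 and 3 and nearly together at days 5 and 7. The day 1 gap is one of TPM alone, since the counts were 13 in the control and 17 in OKS + FoxO6 and the effective transcript lengths that RSEM assigned were 1934 and 4478 bases. The log2 fold change over the days was -0.31 (SE 0.23) and did not pass the test (edgeR adjusted p = 0.427).

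Dhx58, the regulator among these helicases, rested on few reads, from 1 to 41 in a library. It stood at 4.57, 0.56, 14.2, 25.5 and 9.18 TPM in the control arm and at 0.39, 3.62, 2.33, 15.6 and 7.38 TPM in the FoxO6 arm. The log2 fold change of -1.27 (SE 0.51) did not pass the test (edgeR adjusted p = 0.13), and it did when genes of low count were kept in the fit (adjusted p = 0.0317). Mavs, the adaptor, stood between 34.2 and 70.4 TPM in the control arm and between 41.0 and 57.6 in the FoxO6 arm. Its log2 fold change was -0.22 (SE 0.13, edgeR adjusted p = 0.298). Both arms spanned a narrower range for Mavs than for Ddx58 or Ifih1 relative to day 0.

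Zbp1 reached the highest level of the 10 sensors. In the control arm it was 6.97, 23.4, 157, 361 and 194 TPM. In the FoxO6 arm it was 6.09, 6.30, 24.3, 126 and 141 TPM. The level step from day 0 to day 1 there is one of TPM alone. CPM rose from 2.80 to 8.45, a ratio of 3.02 (exact interval 1.09 to 9.57, from 6 and 14 reads). The assigned effective length was 893 bases on day 0 and 2699 on day 1. By CPM the ratio of OKS + FoxO6 over control on day 1 was 0.439 (exact interval 0.214 to 0.858). The FoxO6 library was the lower on all 5 days, and the gap was widest on day 3 as a ratio and on day 5 in TPM. Over the days Zbp1 was lower in OKS + FoxO6 by a log2 fold change of -1.39 (SE 0.29, edgeR adjusted p = 0.0106), or 2.61-fold. Without day 5 the value was -1.30 and missed the threshold (adjusted p = 0.0685).

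Tlr3 was at 3.07, 10.3, 28.8, 27.2 and 11.2 TPM in the control arm and at 4.15, 9.53, 6.36, 27.9 and 5.54 TPM in the FoxO6 arm. Its day 5 values look equal in TPM but differed in counts, 75 in the control and 58 in the deeper FoxO6 library, because the assigned effective length was 4032 bases in the first and 2050 in the second. The log2 fold change was -0.67 (SE 0.29) and missed the threshold (edgeR adjusted p = 0.152), and with only days 3, 5 and 7 in the fit it was -1.13 and passed (adjusted p = 0.0219). Eif2ak2 stood at 13.1, 25.8, 49.1, 65.3 and 36.4 TPM in the control arm and at 23.0, 31.0, 32.4, 56.7 and 23.1 TPM in the FoxO6 arm. It was above the control at days 0 and 1 and below it from day 3 on, and its log2 fold change was -0.07 (SE 0.17, edgeR adjusted p = 0.832).

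On the DNA side, Tmem173 (chr18:35733679-35740554) went the other way. It was 31.1, 36.0, 29.4, 30.6 and 26.2 TPM in the control arm, a nearly level course, and 42.5, 51.6, 66.0, 81.5 and 77.2 TPM in the FoxO6 arm. Every FoxO6 library was above every control library, so the arms did not overlap. Of all 15011 genes 1.95% had such a pattern and 1.27% the opposite one, and Tmem173 was the 1 sensor among them. Over the days Tmem173 was higher in OKS + FoxO6 by a log2 fold change of 1.02 (SE 0.20, edgeR adjusted p = 0.00843), or 2.03-fold. It passed the threshold in all 12 fits that were run, with log2 fold changes from 0.84 to 1.42 and a highest adjusted p of 0.0473.

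Mb21d1, the enzyme upstream of STING, was low in all 10 libraries, between 3.80 and 6.29 TPM in the control arm and between 1.98 and 5.11 TPM in the FoxO6 arm. The FoxO6 library was the lower on all 5 days in TPM, while by CPM that of day 7 was the higher (ratio 1.10, 95% exact interval 0.439 to 2.72). The log2 fold change of -0.39 (SE 0.33) did not pass the test (edgeR adjusted p = 0.506). Trex1 read 20.7, 28.3, 11.7, 31.8 and 47.7 TPM in the control arm and 16.1, 12.3, 34.8, 34.7 and 40.3 TPM in the FoxO6 arm. Its arms crossed more than once, and the log2 fold change was -0.02 (SE 0.32, edgeR adjusted p = 0.977).

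Taken day by day, the sensors differed most at day 3. With 1 library a side there is no test, and a gene was counted where log2(TPM + 1) differed by more than 1, a 2-fold difference, among 15011 genes with a mean of at least 1 TPM. At day 0 the FoxO6 arm was lower for 1 sensor, Dhx58, and higher for 0, against 6.41% and 10.6% of all genes. At day 1 it was lower for 2 (Zbp1 and Trex1) and higher for 1 (Dhx58), against 9.43% and 8.1%. The Dhx58 values at both days rest on 1 to 4 reads a library.

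At day 3 the FoxO6 arm was lower for 5 of the 10 sensors and higher for 2, against 11.8% and 8.21% of all genes. The 5 were all RNA or Z-form sensors, with differences in log2(TPM + 1) of -2.64 for Zbp1, -2.19 for Dhx58, -2.02 for Tlr3, -1.92 for Ddx58 and -1.14 for Ifih1. The 2 higher ones belong to the DNA side, Trex1 at 1.49 and Tmem173 at 1.14, while Mb21d1 of that side was lower at -0.75. All 7 RNA-sensing genes, Mavs and Eif2ak2 included, were lower in the FoxO6 library of that day. The median difference was -0.94 over the 10 sensors and 0.00 over all genes.

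By day 5 the gap had narrowed to 1 lower sensor, Zbp1 at -1.51, and 1 higher, Tmem173 at 1.38, against 11.4% and 10.3% of all genes. At day 7 the FoxO6 arm was lower past 2-fold for 0 sensors and higher for 1, Tmem173 at 1.53, against 16.5% and 8.3%. The medians over the sensors were 0.10, -0.26, -0.25 and -0.33 on days 0, 1, 5 and 7. Over all genes they were 0.09, 0.00, 0.00 and -0.14.

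Reads put bounds on these day values that cover counting error only. At day 3 the control arm held 4.11 times the CPM (reads scaled to library size) of Ddx58 in OKS + FoxO6 (95% exact interval 3.48 to 4.88, from 570 and 187 reads). For Zbp1 the same ratio was 6.16 (4.49 to 8.60, 219 and 48 reads), for Tlr3 2.97 (1.82 to 4.97), for Ifih1 2.33 (1.44 to 3.81) and for Eif2ak2 1.54 (1.21 to 1.97). For Dhx58 it was 8.10 with a wide interval of 2.36 to 42.9, from 18 and 3 reads. For Trex1, higher in OKS + FoxO6, it was 0.357 (0.151 to 0.76), from expected counts of 8.75 and 33.61.

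The ratio for Zbp1 was 3.01 (2.56 to 3.55) at day 5 and 1.32 (1.09 to 1.60) at day 7. For Ddx58 it was 1.97 (1.76 to 2.21) and 1.48 (1.32 to 1.68). Tmem173 went the opposite way in time, with a ratio of OKS + FoxO6 over control of 1.24 (0.867 to 1.80), 1.42 (1.02 to 1.99), 2.22 (1.59 to 3.15), 2.58 (1.86 to 3.63) and 3.26 (2.39 to 4.49) from the first to the last day. Among days 3, 5 and 7 the values for Ddx58 and Zbp1 were thus nearest to the control on day 7, where that of Tmem173 was farthest from it.

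**Figure D2:**
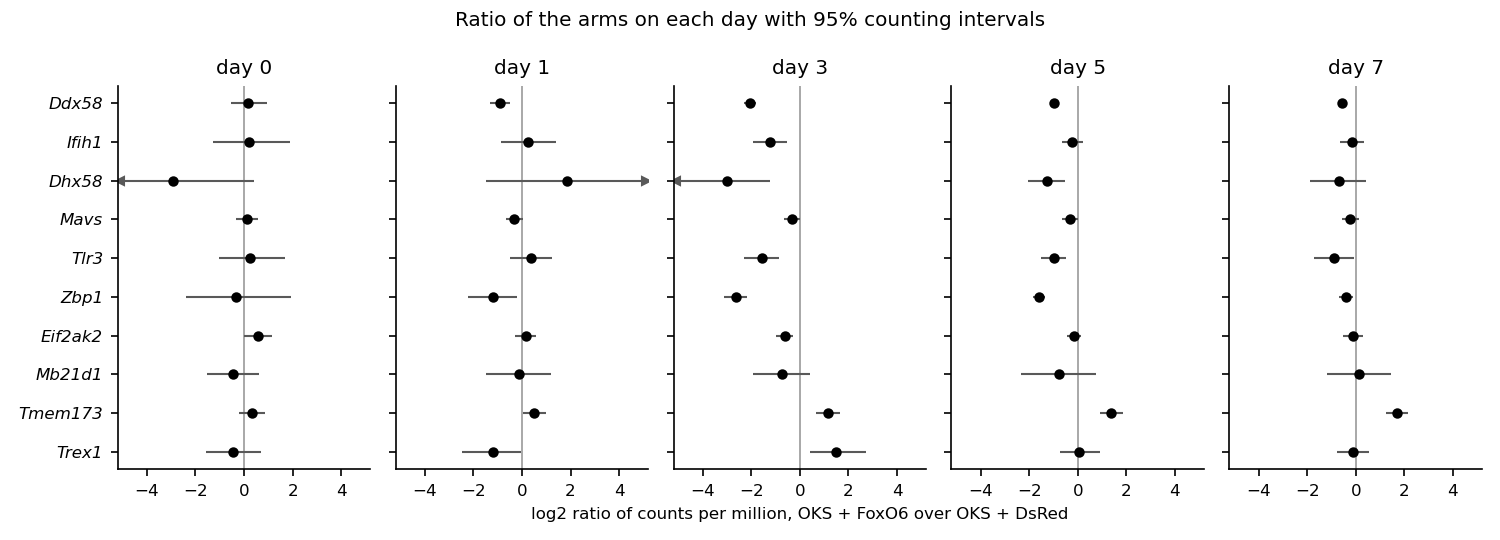
Log2 ratio of CPM, OKS + FoxO6 over OKS + DsRed (horizontal axis), for each sensing gene (rows) on each day (panels), with 95% exact counting intervals as lines, arrowheads where an interval leaves the axis and a grey line at equal counts. The intervals of day 0 all include equal counts, with Dhx58 far to the left on few reads, those of Ddx58, Ifih1, Dhx58, Tlr3, Zbp1 and Eif2ak2 lie to the left at day 3, and those of Tmem173 move to the right up to day 7.

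Ddx58 and Zbp1 stood past 2-fold above their own day 0 in both arms on days 3, 5 and 7. Each later day shares the single day 0 library of its arm, so these counts are not independent of each other. In the control arm 4, 7, 6 and 6 sensors were past 2-fold above day 0 on days 1, 3, 5 and 7, against 15.6%, 21.5%, 22.8% and 21.0% of all genes. In the FoxO6 arm the counts were 3, 4, 7 and 5, against 9.24%, 13.2%, 16.3% and 14.4%. Ddx58 was among them on all 4 days in both arms.

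The size of these courses can be given from the reads. Relative to day 0, the control arm held 18.3 times (95% exact interval 12.2 to 28.9) the CPM of Ddx58 at day 3 and 23.8 times (15.8 to 37.3) at day 5. In the FoxO6 arm the same ratios were 3.95 (2.88 to 5.49) and 10.7 (8.01 to 14.5). For Zbp1 they were 42.3 (16.3 to 157) and 92.0 (35.7 to 339) in the control arm, from 4 reads at day 0, and 8.61 (3.68 to 24.6) and 38.3 (17.3 to 106) in the FoxO6 arm, from 6 reads. Both arms held several times their day 0 level of these 2 genes, and the ratios were lower in the FoxO6 arm at day 3 and at day 5. The intervals of the arms did not overlap for Ddx58 on either day, and they overlapped for Zbp1 on both.

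Tmem173 had no such course in the control arm, where its ratio to day 0 lay between 0.775 and 1.02 and every interval included 1. In the FoxO6 arm it was 1.17 (0.877 to 1.56), 1.48 (1.14 to 1.92), 1.80 (1.41 to 2.31) and 2.03 (1.58 to 2.63) on days 1, 3, 5 and 7. Mavs stood at most 1.87 times (1.38 to 2.55) above day 0 in the control arm and 1.37 times (1.08 to 1.74) in the FoxO6 arm. Mb21d1 stood below its day 0 CPM on every later day in both arms, and each of those intervals included 1.

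Per transcript length, Mavs and Tmem173 led the 10 sensors at day 0 in both arms, at 34.2 and 31.1 TPM in the control and 41.0 and 42.5 in OKS + FoxO6. At day 5 Zbp1 and Ddx58 led in both arms. Together these 2 made up 13.1% of the summed TPM of the sensors at day 0 in the control arm and 70.5% at day 5, against 12.6% and 49.0% in the FoxO6 arm. The summed TPM of the 10 was 133, 255, 605, 942 and 632 in the control arm and 154, 211, 292, 585 and 492 in the FoxO6 arm. With 1 library a point, neighbours in this order have no spread to be compared against.

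The genes whose course was most like that of a sensor, by Pearson's r of log2(TPM + 1) over the 10 libraries among 11422 genes, are given as a description, since the points share arms, days and libraries. For Ddx58 they included Cacna2d2 (r = 0.99) and Parp9 (0.98), for Zbp1 Brinp2, Slc7a3 and Pdzph1 (each 0.99), for Ifih1 Parp9, Gon4l and Xaf1 (each 0.97), and for Tmem173 Atp6v0a1 (0.97), Mocos and Try5 (both 0.96). Within the sensors, r was 0.96 between Ddx58 and Zbp1, 0.95 between Ddx58 and Ifih1 and -0.76 between Tmem173 and Mb21d1.

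The products of sensing, the interferons, were at or near 0 reads in all libraries. Of 21 interferon ligand genes (Ifnb1, the Ifna family, Ifne, Ifnk, Ifnz, Ifnl2, Ifnl3 and Ifng), 18 had no read in any library. The other 3 were Ifnz, Ifnab and Ifng, and the highest count of one of them in a library was 2.69, for Ifnz in OKS + FoxO6 on day 0. Ifnb1, the interferon that fibroblasts typically make first, had 0 reads in all 10 libraries, and a count of 0 allows up to 3 reads, or 1.35 to 2.48 CPM depending on the library. Expression below that level can be missed.

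**Figure D3:**
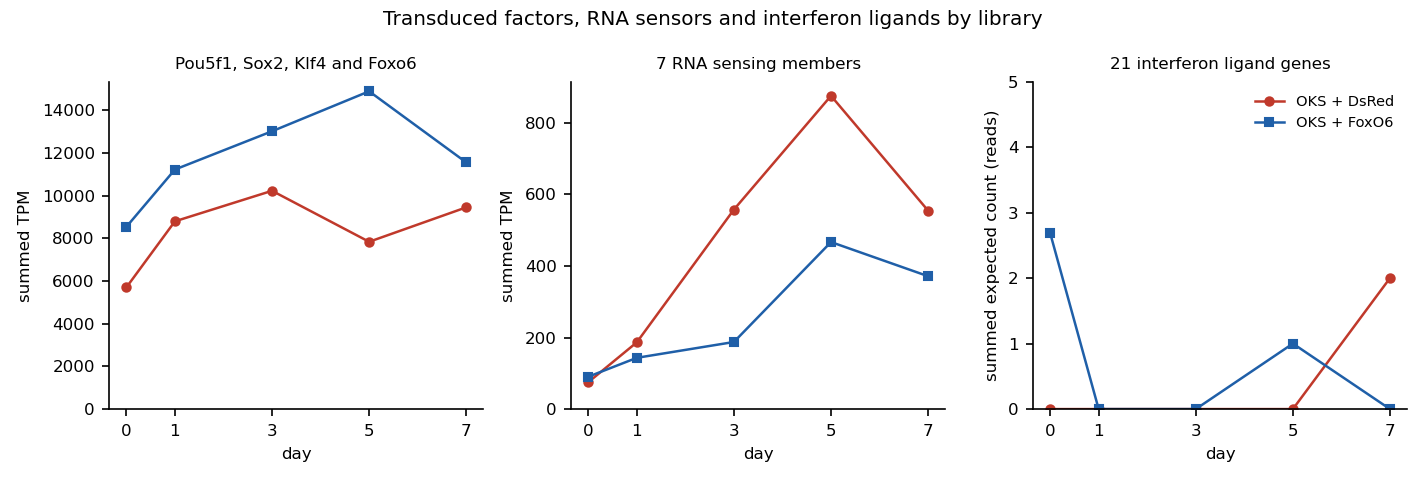
Summed TPM of Pou5f1, Sox2, Klf4 and Foxo6 (left), summed TPM of the 7 RNA-sensing genes (middle) and summed expected counts of 21 interferon ligand genes (right) against day in OKS + DsRed (red circles) and OKS + FoxO6 (blue squares), 1 library per point. The factor sum, which leaves out DsRed, is higher in the FoxO6 arm on all 5 days. The RNA sensor sum is higher in the control arm from day 1 on, and the ligands never exceed 2.69 reads.

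The retroviral load itself can be read only through the transcripts of the factors, in which viral and endogenous copies are not told apart, and DsRed is not among the annotated genes. The summed TPM of Pou5f1, Sox2 and Klf4 was 5702, 8800, 10231, 7841 and 9456 in the control arm and 7525, 9906, 11667, 13631 and 10801 in the FoxO6 arm. With Foxo6 the FoxO6 arm reached 8542, 11230, 13024, 14897 and 11563. The sum of the shared factors was higher in the FoxO6 arm on every day. Klf4 alone was lower there at day 7, at 2798 TPM against 2940 in the control arm. Without DsRed the total load of the arms cannot be compared. Over the days Pou5f1 was higher in OKS + FoxO6 by 0.43 (SE 0.12, edgeR adjusted p = 0.0349), while Klf4 at 0.30 (SE 0.10) and Sox2 at 0.27 (SE 0.10) missed the threshold (adjusted p = 0.0762 and 0.101). Whether viral RNA or DNA was sensed in either arm was not tested by these libraries.

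Other sensors of the same kind were taken from a list of 29 genes, of which 24 had a mean of at least 1 TPM. Over the days 4 were lower in OKS + FoxO6 and 0 higher, against 6.89% and 6.63% of all genes tested. They were Oasl2, of the oligoadenylate synthetase family, at -1.94 (SE 0.45, edgeR adjusted p = 0.0164), the DNA sensor of an inflammasome Aim2 at -1.46 (SE 0.29, adjusted p = 0.00785), the helicase Ddx60 at -1.42 (SE 0.42, adjusted p = 0.0449) and the chromatin protein Hmgb1 at -0.47 (SE 0.13, adjusted p = 0.0391). The median log2 fold change of the list was -0.29, against -0.02 over all genes. At day 3 the FoxO6 arm was lower past 2-fold for 11 of the 24 and higher for 0, against 11.8% and 8.21% of all genes. At day 1 it was lower for 2 and higher for 4, against 9.43% and 8.1%. At day 5 the counts were 6 and 1, against 11.4% and 10.3%, and at day 7 they were 5 and 1, against 16.5% and 8.3%.

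Not every sensor of that list had the same course. Oas2, whose product makes the messenger that activates RNase L, stood at 167, 363 and 155 TPM in the control arm on days 3, 5 and 7 and at 52.3, 395 and 368 TPM in the FoxO6 arm, so the order of the arms turned after day 3. Ifi204, of the interferon-inducible p200 family, stood between 40.6 and 45.0 TPM on all 5 days of the FoxO6 arm and between 7.77 and 63.5 TPM in the control arm. The helicase Dhx9 kept between 144 and 185 TPM in the control arm and between 113 and 174 TPM in the FoxO6 arm. Tlr7 and Tlr9, sensors of immune cells, were at or near 0 in all libraries, with at most 0.30 TPM.

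Of 22 genes of the signalling chain between sensors and interferon genes, 21 were measured and 1 passed the test, a count near the shares of all genes tested (6.89% lower and 6.63% higher). It was Irf1, lower by a log2 fold change of -1.79 (SE 0.29, edgeR adjusted p = 0.00274). The median of the list was 0.14. The kinase Tbk1 stood between 24.0 and 72.4 TPM in the control arm and between 37.8 and 58.1 in the FoxO6 arm (log2 fold change 0.19, SE 0.14, adjusted p = 0.419), and the factor Irf3 between 40.5 and 97.5 and between 75.2 and 125 TPM (0.31, SE 0.17, adjusted p = 0.268). Irf7, itself an interferon-stimulated gene, stood at 92.6 TPM in the control and 16.0 in OKS + FoxO6 on day 3, and on day 7 at 52.8 and 73.6, with a log2 fold change of -0.60 (SE 0.42) that did not pass the test (adjusted p = 0.403).

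Of 15 interferon receptor and transducer genes, 14 were measured, with a median log2 fold change of 0.18. The feedback inhibitor Socs3 was higher in OKS + FoxO6, by a log2 fold change of 0.90 (SE 0.12, edgeR adjusted p = 0.000766). The receptor chains Ifnar1 and Ifnar2 gave 0.18 (SE 0.12, adjusted p = 0.403) and 0.21 (SE 0.18, adjusted p = 0.521).

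Early antiviral genes, which IRF3 and the interferon complex both act on, were represented by 19 genes, of which 18 were measured and 16 tested. Ifi44 at -1.83 (SE 0.43, edgeR adjusted p = 0.0219), Parp14 at -1.29 (SE 0.30, adjusted p = 0.0165) and Cmpk2 at -1.0 (SE 0.27, adjusted p = 0.0333) were lower over the days and 0 genes were higher, against 6.89% and 6.63% of all genes tested. The list's median was -0.89, against -0.02 over all genes. At day 3 the FoxO6 arm was lower past 2-fold for 12 of the 18, and on days 5 and 7 for 10 and 3, with 2 higher on the last day, against 11.8%, 11.4% and 16.5% of all genes lower and 8.3% higher on day 7. The day 7 count was near that share. The median difference of the list was -1.55, -1.05 and -0.17 on those days, and that of the 10 sensors -0.94, -0.25 and -0.33.

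The interferon gamma and antigen presentation genes stood farther apart. Of 23 genes, 20 were measured, and 13 were lower and 0 higher over the days, against 6.89% and 6.63% of all genes tested. The median log2 fold change was -1.77, against -0.02 over all genes. Psmb8, a subunit of the immunoproteasome, was lower by -2.97 (SE 0.43, edgeR adjusted p = 0.00143), and Igtp, a GTPase of cell defence, by -2.91 (SE 0.30, adjusted p = 0.000203). The median difference was -2.70, -2.04 and -1.41 on days 3, 5 and 7. At day 7, where 0 sensors were lower past 2-fold, 16 of these 20 were, against 16.5% of all genes. Ifng itself had 0.90 TPM in the control library of day 7 and 0 in the other 9.

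**Figure D4:**
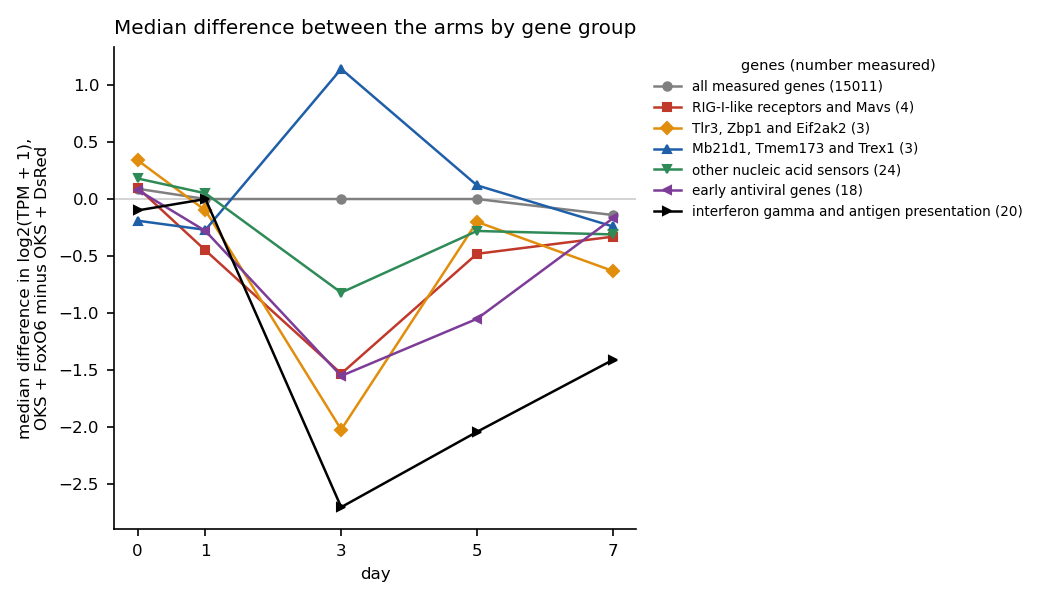
Median difference in log2(TPM + 1), OKS + FoxO6 minus OKS + DsRed (vertical axis), against day for the 3 groups of sensing genes, other sensors, early antiviral genes, interferon gamma and antigen presentation genes and all measured genes, with the number measured in the legend and no error bars. At day 3 the receptors with Mavs stand at -1.53, Tlr3, Zbp1 and Eif2ak2 at -2.02 and the DNA group at 1.14, the Tmem173 value. Only the interferon gamma group is still below -1 at day 7.

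The ISRE core was also counted over the lists of other genes, beside the 3.99% of all genes that held it. It was found at a listed start of 9 of 24 other sensors, 7 of 13 early antiviral genes and 9 of 19 interferon gamma and antigen presentation genes with a promoter in the table, and of 3 of the 7 nucleic acid sensors. It was found in 11 of 20 interferon ligands, a list in which 18 of 21 genes had no read, in 3 of 9 retrovirus restriction genes, in 4 of 19 cofactors and limiters of sensing and in 2 of 12 interferon receptors and signal transducers. Among the signalling genes it was found in 0 of 19, a share near that of all genes. Some genes belong to more than one list. Of the 3 sensors that hold the core, Ddx58 passed the test over the days and Ifih1 and Eif2ak2 did not.

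Immune cells also express many of these genes, so their markers were read in every library. The highest level of Ptprc, Csf1r, Adgre1, Tyrobp and Fcer1g, defining markers of blood cells and macrophages, was 2.23 TPM in any library, and between 4 and 9 of the 14 macrophage markers were at 0. The summed TPM of that list was between 22.8 and 97.2 in the control arm and between 35.2 and 55.7 in the FoxO6 arm, and Cd68 and Laptm5 made up most of it. Laptm5 was lower in OKS + FoxO6 by a log2 fold change of -1.10 (SE 0.26, edgeR adjusted p = 0.0176). The 6 dendritic cell markers summed to at most 4.91 TPM, with Flt3 and Siglech at 0 throughout. The 9 lymphocyte markers summed to at most 20.6 TPM, nearly all of it Cd3g, while Cd3e stayed at or below 0.36.

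Endothelial markers, 7 in number, summed to between 22.8 and 55.5 TPM in the control arm and between 34.6 and 143 TPM in the FoxO6 arm. Tek and Kdr were higher in OKS + FoxO6, by 0.96 (SE 0.13, edgeR adjusted p = 0.0012) and 2.20 (SE 0.58, adjusted p = 0.0301), while the defining markers Pecam1 and Cdh5 stood at most at 5.73 and 1.24 TPM. These values moved with the arm, as Tmem173 did, and their part in the result for Tmem173 was not tested. Among the fibroblast markers Twist1 at 1.00 (SE 0.16, adjusted p = 0.00237), Pdgfra at 0.96 (SE 0.24, adjusted p = 0.0234) and Postn at 0.70 (SE 0.17, adjusted p = 0.0213) were higher and Col3a1 at -0.63 (SE 0.15, adjusted p = 0.0196) lower. The part of this shift in the sensor values was not tested either.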

How the data were processed

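RNA was sequenced from 10 libraries, 1 per arm and day. The labels name the VAHTS mRNA-seq V3 kit, while the paper's methods name a TruSeq RNA kit. The authors aligned reads to GENCODE M13 transcripts (mm10) with bowtie2 and RSEM, versions not given in the sources used here, and deposited expected counts and TPM per gene for each library, and a table of the same expected counts for 48476 genes (largest difference 0). TPM corrects for length and depth, and the effective length differs between libraries where RSEM assigns reads to other isoforms.

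Expected counts were rounded to whole numbers and tested with edgeR 4.0.16 (R 4.3.3). The fit used glmQLFit and glmQLFTest, day and arm as terms, TMM and filterByExpr, with 4 residual degrees of freedom. It was tested on simulated data that held no day effect and an arm effect equal on all days. How it does on courses like those of the sensors was not tested. The threshold was a Benjamini-Hochberg adjusted p under 0.05. Day values used log2(TPM + 1) with a pseudocount of 1 and, for ratios, TMM-scaled counts (CPM) with 95% exact binomial intervals. DESeq2 1.42.0 was an alternative. Depth was 1208379 to 2225750 counts.

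The 10 sensors are all named. Other genes come from lists, and 3 most alike genes per sensor by correlation were looked up, of which those of 4 sensors are printed. Some genes of these sets are not reported here. The sensors and lists were chosen with earlier results of these data known. Python 3.11.15 and scipy 1.17.1 were used, and sequences came from RefSeq tables.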

Additional observations from a re-analysis of the deposited data

How the results depend on the processing

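The day term pairs the libraries of each day. Tmem173 kept its call in all 12 fits, Zbp1 in 10 and Ddx58 in 8. With DESeq2's Wald test 1095 genes passed and 548 were lower, against 841 lower in edgeR. Without that pairing (no day term) 169 passed, 125 higher and 44 lower, and 0 sensors were lower (Ddx58 and Zbp1 adjusted p = 0.603 and 0.602). Leaving out each day in turn gave 705 to 1640 genes past the threshold, 370 to 837 higher and 335 to 841 lower, with 0 to 2 sensors lower and 1 higher. Directions of sensors that were not called turned for Trex1 with no filter on low counts (0.00), with only days 3, 5 and 7 (0.38), and over the fits that left out 1 day, where it ran from -0.35 to 0.21 (0.06 without day 0, 0.21 without day 1) and that of Eif2ak2 from -0.19 to 0.07 (without day 3). By CPM in place of TPM, 0 sensors were higher at day 1 and the median of the sensors there was 0.01, 2 were lower at day 5 (Zbp1 and Dhx58) and 2 were above day 0 at day 1 in the control arm. With a pseudocount of 0.1, 1 sensor was lower at day 7. By CPM the difference also changed sign for Ifih1 on day 0 (from -0.04 to 0.17) and day 1 (from -0.81 to 0.22), Tlr3 on day 1 (from -0.10 to 0.35) and day 5 (from 0.04 to -0.95) and Mb21d1 on day 7 (from -0.26 to 0.11). For Ifih1 on day 1 and Tlr3 on day 5 the assigned effective lengths differed between the arms, as given above. The cause of the other changes was not tested. Depth limits Dhx58, Mb21d1, Trex1 and the day 0 values of Zbp1 and Ifih1 most, and interferon transcripts worth under 3 reads a library can be missed.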

Other observations

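Cofactors and limiters of sensing, 24 genes that were all measured and of which 23 were tested, included 2 that were lower and 2 that were higher in OKS + FoxO6, with a median log2 fold change of -0.20. These counts are near the shares of all genes tested, 6.89% lower and 6.63% higher, and say nothing of the list. Nlrc5, a transactivator of antigen presentation genes that has also been linked to the restraint of sensing, was lower by -3.04 (SE 0.52, edgeR adjusted p = 0.00361), and Enpp1, which hydrolyses the cyclic dinucleotide that cGAS makes for STING, by -1.25 (SE 0.26, adjusted p = 0.0109). Enpp1 stood at 3.92, 23.2, 36.6, 48.2 and 33.8 TPM in the control arm and at 7.25, 10.3, 11.3, 14.9 and 16.8 TPM in the FoxO6 arm. Ppp1r15a, which helps to reverse the translation block that PKR sets, was higher by 0.78 (SE 0.15, adjusted p = 0.00611). Ripk3, the kinase that ZBP1 engages in cell death, was higher by 0.46 (SE 0.13, adjusted p = 0.045) in the arm in which Zbp1 itself was lower.

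Of 9 genes that restrict or silence retroviruses, 3 were lower in OKS + FoxO6 and 0 higher, against 6.89% and 6.63% of all genes tested, with a median of -0.60. The helicase Mov10 was lower by -1.29 (SE 0.18, edgeR adjusted p = 0.00133), the cytidine deaminase Apobec3 by -0.81 (SE 0.14, adjusted p = 0.00355) and the histone methyltransferase Setdb1 by -0.53 (SE 0.15, adjusted p = 0.0418). Mov10 stood at 16.4, 30.6, 59.9, 77.8 and 68.6 TPM in the control arm and at 11.9, 16.2, 21.2, 32.3 and 24.7 TPM in the FoxO6 arm, below the control on all 5 days. Bst2, which holds virions at the cell surface, stood at 277 and 61.9 TPM at day 3 and at 521 and 554 TPM at day 7 in the control and FoxO6 arms, and its log2 fold change of -0.75 (SE 0.30) did not pass the test (adjusted p = 0.131).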
